A study of Rattus norvegicus with 6 samples.

Results

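HMGA2 was overexpressed in ROSE199, a cell line from rat ovarian surface epithelium, and RNA of these cells was set against RNA of ROSE199 cells carrying the empty vector. Of the 6 arrays in the series, 3 carry this comparison: 2 arrays of HMGA2 transfectants and 1 array of empty-vector transfectants. All 293 named probes (features) of the array were used as members, out of 311 features that also include 18 unnamed clones. The question that the design poses is which transcripts differ when HMGA2 is the one gene added to otherwise untransformed ovarian epithelial cells.

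Both groups were ROSE199 cells stably transfected with pEF6 (Invitrogen), a plasmid with an elongation factor promoter, and selected in 10 µg/ml blasticidin in medium with 10% serum. In one group the plasmid carried an HMGA2 construct and in the other it carried no insert, so selection and vector were shared and untreated ROSE199 cells had neither. The labels do not say whether the transfectants were clones or pools, nor from which species the HMGA2 sequence came. Each array was a 2-colour hybridization of transfectant RNA against RNA of untreated ROSE199 cells, labelled from 20 µg of RNA each by dendrimer (3DNA) chemistry. Cy5 marked the transfectant RNA for the empty vector and for HMGA2 replicate 1, and Cy3 marked it for HMGA2 replicate 2. Nothing in the labels shows that the 2 HMGA2 arrays came from separate cultures, so each group was counted as 1 RNA sample, no test between the groups was possible and no p-value is given. A bulk culture cannot tell fewer cells that express a gene from less RNA per cell. The remaining 3 arrays, of RAS-transformed ROSEA25 cells given siRNA against EGFP or HMGA2, entered only to estimate the dye effect and the error.

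HMGA2, named HMGI-C on this array after its older name, is an architectural chromatin protein. It binds short A/T-rich stretches in the minor groove of DNA through AT-hooks and bends the DNA, by which it alters the assembly of transcription factor complexes on promoters and enhancers. It is abundant in the embryo, almost silent in most adult tissues, and found again in many tumours, ovarian carcinoma among them.

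Values are log2 ratios of transfectant over untreated ROSE199 RNA, averaged over the spots of a feature (4 or 5 for most, 2 to 6 in all, and 322 for beta actin), so 0 means the same signal as ROSE199 and 1 a doubling. Differences are HMGA2 minus empty vector from a least-squares fit with a dye term, with a pooled standard error of 0.22 that covers labelling and hybridization only. A feature was called when this difference was at least 1 in size, exceeded 2 pooled standard errors, and had the same sign between the Cy5 arrays alone. The size limit is well above 2 pooled standard errors, and no feature that reached it failed the sign condition. The calls were therefore decided by size alone. Median net signal per array was 899, 1287 and 1440 in the transfectant channel (empty vector, HMGA2 replicates 1 and 2), and the median spot SD was 0.06, 0.06 and 0.04 on the log2 scale. Apart from SFB1 posphatase, every named feature stood above the blank spots in the transfectant channel of all 3 arrays. This includes 6 epithelial features (E-cadherin, P-cadherin, WT1, DOC-2, Megakaryocyte potenciating factor and Basonuclin). It includes the muscle factor MyoD as well, so standing above blank cannot check the tissue label. Alpha tubulin was saturated on all 3 arrays. Quantification of the HMGA2 arrays and of the empty-vector array fell on different days, so HMGA2 and the day of quantification cannot be told apart.

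Most features differed little. Of the 311 features, 236 (75.9%) lay within 0.5 of 0, 51 lay between 0.5 and 1, and the quartiles were -0.29 and 0.27 around a median of 0.00. In all, 24 features (7.72%) were called, 14 higher (4.5%) and 10 lower (3.22%), and all 24 were named. The split of calls moved with the centring: it was 27 higher and 7 lower after centring on housekeeping features, 34 and 7 on beta actin, and 18 and 7 with the authors' deposited log2 ratios, whose median difference lay 0.12 lower. The 18 unnamed clones lay between -0.76 and 0.83. The log2 ratios of the HMGA2 arrays correlated at r = 0.838 across the 311 features, which share the ROSE199 reference RNA and the array design, and their median gap was 0.17.

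Both HMGA2 arrays lay above the empty-vector array at 112 features (36%) and below it at 126 (40.5%), so lying on one side of the control was common and is no sign of a difference by itself. Every HMGA2 spot lay above every empty-vector spot at 87 features (28%) and below at 82 (26.4%). Among the called features, which the call rule chose on these same arrays, this held for 13 of the 14 higher and all 10 lower ones, P53 binding protein being the exception. At 19 of the 24 (10 higher and 9 lower) each HMGA2 array was at least 1 away from the empty-vector array without any dye correction, which was so for 24 of all features (12 in each direction).

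**Figure D1:**
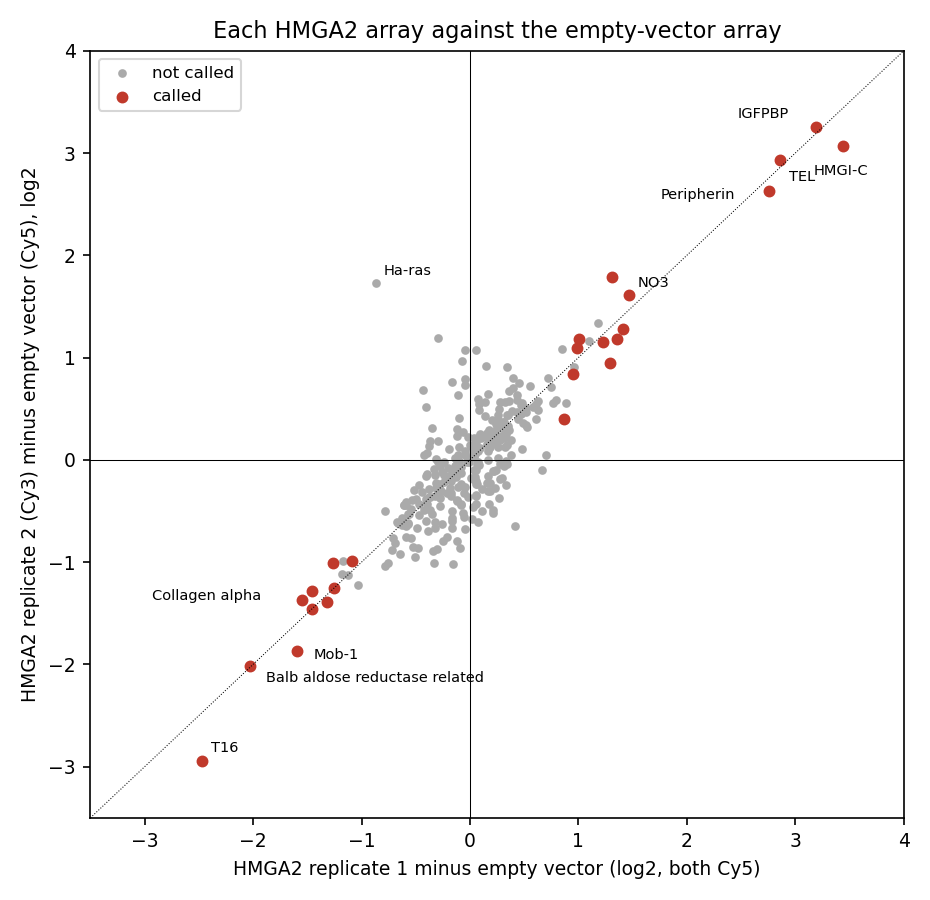
Log2 difference of each HMGA2 array from the empty-vector array, for 311 features: HMGA2 replicate 1 on the horizontal axis (both in Cy5) and replicate 2 on the vertical axis (Cy3 against Cy5), with called features in red and the dotted line marking equality. HMGI-C, IGFPBP, TEL and Peripherin stand apart at the upper right between 2.63 and 3.44, T16 lies lowest at -2.47 and -2.94, and Ha-ras is high on one axis and low on the other (-0.87 and 1.72).

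HMGI-C itself checked the labels. Its log2 ratio was 0.26 (spot SD 0.10) in empty-vector cells and 3.70 (0.18) and 3.33 (0.06) on the HMGA2 arrays, over 4 spots each. Net signal was 118 with the empty vector against 2769 and 2558 with HMGA2, while the ROSE199 channel of the same spots read 179, 233 and 160. The HMGA2 transfectants were therefore far above the control on both arrays and in both dyes. The fitted difference was 3.25, or 9.52-fold, and ranged from 2.67 to 3.93 over 17 other ways of processing. A probe that reads endogenous and transfected transcripts alike cannot separate them, and the probe's sequence was not used here.

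Beside the introduced gene, 3 features were more than 7-fold higher in the fit: IGFPBP, TEL and Peripherin. IGFPBP is by its name an insulin-like growth factor binding protein, a class of secreted proteins that hold IGF away from or near to its receptor, and the name does not give the family member. Its ratios were -0.27 with the empty vector and 2.93 and 2.99 with HMGA2, a difference of 3.28 or 9.74-fold, level with HMGI-C within the pooled error. TEL (ETV6), an ETS-family transcriptional repressor that is rearranged in leukaemias, read 0.30, 3.16 and 3.23, a difference of 3.15 or 8.85-fold. The dye term raised the value for TEL, since the Cy5 arrays alone gave 2.86 or 7.27-fold. Both IGFPBP and TEL were thus near ROSE199 in control cells and almost equal on the HMGA2 arrays.

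Peripherin is an intermediate filament protein of peripheral neurons. It read -0.35 with the empty vector and 2.41 and 2.28 with HMGA2, a difference of 2.95 or 7.74-fold. The dye term raised this value as well, since the Cy5 arrays alone gave 2.76 or 6.76-fold. Net signal was 2051, 13954 and 14571 in the transfectant channel against 2500, 2334 and 2586 in the ROSE199 channel, before any scaling between arrays. After quantile normalization between arrays the transfectant channel differed by 1.95 (log2, HMGA2 minus empty vector) and the ROSE199 channel by -0.74, without a dye term. Because HMGA2 binds A/T stretches, the 250 bases before the RefSeq start of its gene Prph are shown with every run of at least 6 A or T letters in capitals (rat build GRCr8, chr7:132097039-132097288, plus strand; such runs read as runs on either strand). It holds 1 such run.

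Prph: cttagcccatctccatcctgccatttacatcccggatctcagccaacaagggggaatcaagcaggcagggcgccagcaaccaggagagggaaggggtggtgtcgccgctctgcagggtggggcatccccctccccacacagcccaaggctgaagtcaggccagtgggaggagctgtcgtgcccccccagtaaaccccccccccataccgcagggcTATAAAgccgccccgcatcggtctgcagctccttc

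For 11 of the 24 called features the RefSeq gene was looked up by symbol, synonym or protein name. Of these, 10 had such a window, and 6 windows held a run of at least 6 A or T letters. Over all 33465 windows of the table the share was 68.6%, with a median A/T content of 48.8%. The A/T content of the 10 windows ran from 27.2% (Ril) to 52.4% (DOC-2), and only that of DOC-2 was above this median. A run is a string of letters and no measured binding site.

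**Figure D2:**
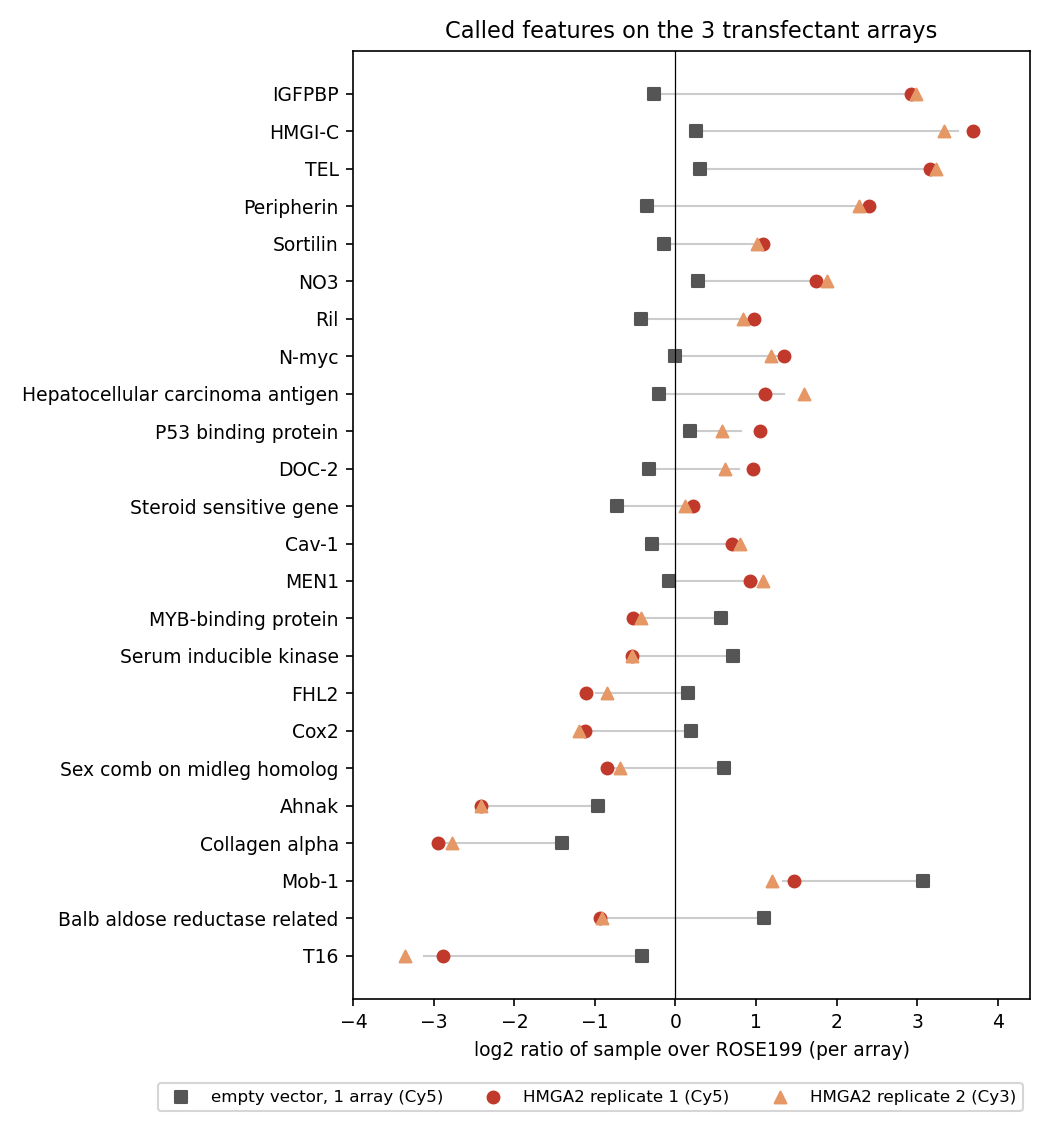
Log2 ratio of transfectant over ROSE199 RNA for the 24 called features on each array (squares for the empty vector, circles and triangles for HMGA2 replicates 1 and 2), with grey lines from the empty vector to the mean of the HMGA2 arrays. The HMGA2 symbols lie close together, at most 0.48 apart, while the empty-vector symbols lie on both sides of 0, from -1.40 for Collagen alpha to 3.07 for Mob-1.

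Sortilin, a sorting receptor for neurotrophins and lysosomal proteins, followed with ratios of -0.15, 1.08 and 1.01. Its fitted difference of 1.68 contains a dye correction, and the Cy5 arrays alone gave 1.23. NO3, a feature whose name gives no gene, read 0.28, 1.75 and 1.89, a difference of 1.58 or 2.99-fold. Ril (Pdlim4), a PDZ and LIM domain protein of actin stress fibres, read -0.43, 0.97 and 0.84, a difference of 1.51. All 3 had clear gaps between the control and both HMGA2 arrays.

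N-myc, a MYC-family transcription factor best known from neuroblastoma, read -0.00047 with the empty vector and 1.35 and 1.18 with HMGA2, a difference of 1.30 or 2.46-fold. Its relative c-myc went the other way, with -0.10, -0.78 and -0.71 and a difference of -0.61 that was not called. Hepatocellular carcinoma antigen read -0.20, 1.11 and 1.59, a difference of 1.29 on weak signal, since its net signal with the empty vector was 172. The HMGA2 arrays differed more here than at any other called feature, by 0.48.

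The remaining 5 higher features lay close to the limit. P53 binding protein was at 1.14, the adaptor and growth regulator DOC-2 (Dab2) at 1.12, Steroid sensitive gene at 1.08, the membrane scaffold Cav-1 (caveolin) at 1.04 and MEN1, which encodes the tumour suppressor menin, at 1.03. DOC-2 read -0.33, 0.96 and 0.62, Steroid sensitive gene -0.72, 0.22 and 0.12, Cav-1 -0.29, 0.70 and 0.80, and MEN1 -0.08, 0.92 and 1.09. The control lay below both HMGA2 arrays in each. P53 binding protein read 0.18, 1.05 and 0.58, so its second array was only 0.40 above the control, and its spots overlapped. Just below the limit stood Basonuclin (0.96), RPT-1r (0.94) and PRP (0.93), of which RPT-1r read 0.12, 1.31 and 1.46 and was more than 1 above the control on each array before the dye term.

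Of the lower features, T16 had the greatest difference. T16 is listed by RefSeq as a synonym of Efemp1, the gene of the matrix glycoprotein fibulin 3. Its ratios were -0.42 with the empty vector and -2.89 and -3.36 with HMGA2, and the fit gave -2.09, or 4.24-fold lower. The Cy5 arrays alone gave -2.47, and without HMGA2 replicate 1 the value was -0.94, which is not a call. Its spots varied on HMGA2 replicate 1 (SD 0.78, against 0.05 with the empty vector), where net signal was 171. The 250 bases before the RefSeq start of Efemp1 (GRCr8, chr14:106811614-106811863, plus strand), shown in the same way for comparison with Prph, hold 1 run.

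Efemp1: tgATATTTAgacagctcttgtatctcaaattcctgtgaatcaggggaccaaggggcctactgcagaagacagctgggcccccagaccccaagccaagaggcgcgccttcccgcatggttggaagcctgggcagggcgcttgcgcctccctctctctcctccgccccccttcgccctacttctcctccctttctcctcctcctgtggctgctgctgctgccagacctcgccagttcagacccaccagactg

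Collagen alpha, a collagen chain whose number the name does not give, was below ROSE199 in control cells already, at -1.40, and lay at -2.95 and -2.78 with HMGA2. The difference was -1.44, or 2.72-fold lower. Ahnak, a very large scaffold protein beneath the plasma membrane that binds S100 proteins, had the same pattern with -0.96, -2.41 and -2.42 and a difference of -1.40. In the fit, the empty vector alone was on the lower side of ROSE199 for T16, Collagen alpha and Ahnak (-1.04, -1.42 and -1.01). HMGA2 cells were lower again. For T16 most of this control value comes from the dye term, since its empty-vector array read -0.42. Its gap between dyes was 2.00 on the siHMGA2 arrays and 0.47 on the HMGA2 arrays.

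Mob-1 and Balb aldose reductase related started from the other side. Mob-1, named like a RAS-inducible chemokine although the name alone does not settle the gene, read 3.07 in empty-vector cells and 1.48 and 1.20 in HMGA2 cells. It was 3.26-fold lower than in the control (-1.70) and still above ROSE199. Balb aldose reductase related, by its name an enzyme of the aldo-keto reductase family, read 1.10, -0.93 and -0.92, a difference of -1.98 or 3.96-fold lower. In 7 of the 10 lower features the empty vector was above ROSE199 in the fit, in 5 of them by at least 0.5, so these differences also depend on the level of the 1 control array. Of the 14 higher features the empty vector was below ROSE199 in 10, and 9 of the 14 were also at least 1 above ROSE199 with HMGA2.

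Cox2 (Ptgs2), the inducible prostaglandin synthase, read 0.19, -1.13 and -1.20, a difference of -1.31 or 2.47-fold lower. FHL2, a LIM-only coactivator of AP-1 and other factors, read 0.16, -1.11 and -0.85, a difference of -1.26. The spots of FHL2 varied on the HMGA2 arrays (SD 0.49 and 0.40, against 0.15 with the empty vector), and net signal was 305 on HMGA2 replicate 1. Both Cox2 and FHL2 were near ROSE199 in control cells and below it with HMGA2. The window before the start of Fhl2 (GRCr8, chr9:52954541-52954790, minus strand) held 3 runs, more than the other windows of called features, and is shown for that reason.

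Fhl2: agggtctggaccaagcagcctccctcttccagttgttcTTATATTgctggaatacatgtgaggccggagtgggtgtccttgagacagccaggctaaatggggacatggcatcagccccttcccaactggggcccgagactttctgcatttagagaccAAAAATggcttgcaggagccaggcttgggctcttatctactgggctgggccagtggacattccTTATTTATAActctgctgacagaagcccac

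Sex comb on midleg homolog, by its name a Polycomb-group protein, read 0.60, -0.85 and -0.69, a difference of -1.36. Serum inducible kinase, a polo-like kinase, read 0.71, -0.54 and -0.54, a difference of -1.09, and MYB-binding protein was at -1.02. The last 2 were among the features nearest to the limit, and neither was called under 7 of the 17 alternatives, with -0.60 and -0.82 without HMGA2 replicate 1. Just outside stood S-100 related (-0.99), Fra-1 (-0.90) and Ha-ras (-0.88).

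Ha-ras was the feature at which the HMGA2 arrays lay at least 0.5 from the control on opposite sides, and no other feature did so. Its ratios were -0.47, -1.34 and 1.25. The dye-swapped siHMGA2 arrays showed almost the same gap between dyes at this feature, -2.64 against -2.59, so this probe's ratio differed with the dye in both pairs. The fitted difference of -0.88 was close to that of the Cy5 arrays alone, -0.87. Without Ha-ras the HMGA2 arrays correlated at r = 0.862.

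The channels of the arrays were also examined apart. The average intensities were quantile-normalized between arrays, and each channel's HMGA2 mean was compared with its empty-vector value. No dye term entered here, so the transfectant value less the ROSE199 value gives the difference before dye correction, not the fitted one. The ROSE199 channel, which held the same kind of RNA on each array, differed by an SD of 0.892 across features, and the transfectant channel by 1.09, with r = 0.814 between them across 311 features that share spots. Signal levels were therefore not comparable between these arrays and ratios were used. The transfectant channel was higher at all 14 higher features and lower at all 10 lower ones, but at 7 of the 10 lower ones the ROSE199 channel was higher as well. At Balb aldose reductase related the ROSE199 channel differed by 1.16 and the transfectant channel by -0.86, at Sex comb on midleg homolog by 1.03 and -0.34, at Serum inducible kinase by 0.87 and -0.39, and at Collagen alpha by 0.84 and -0.62. In these 4 lower features, and among the higher ones in N-myc (-0.89 and 0.37) and P53 binding protein (-0.51 and 0.12), the reference moved more than the transfectant. The ROSE199 channel also differed widely at Steroid sensitive gene (2.25, with 3.15 in the transfectant channel), T16 (1.15 and -1.55) and Sortilin (1.13 and 2.32). The part of the reference in these ratios was not tested. For IGFPBP (0.67 and 3.89), HMGI-C (0.29 and 3.54), TEL (-0.12 and 2.77), Mob-1 (-0.67 and -2.40) and Cox2 (-0.42 and -1.77) the transfectant channel held most of this uncorrected difference.

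**Figure D3:**
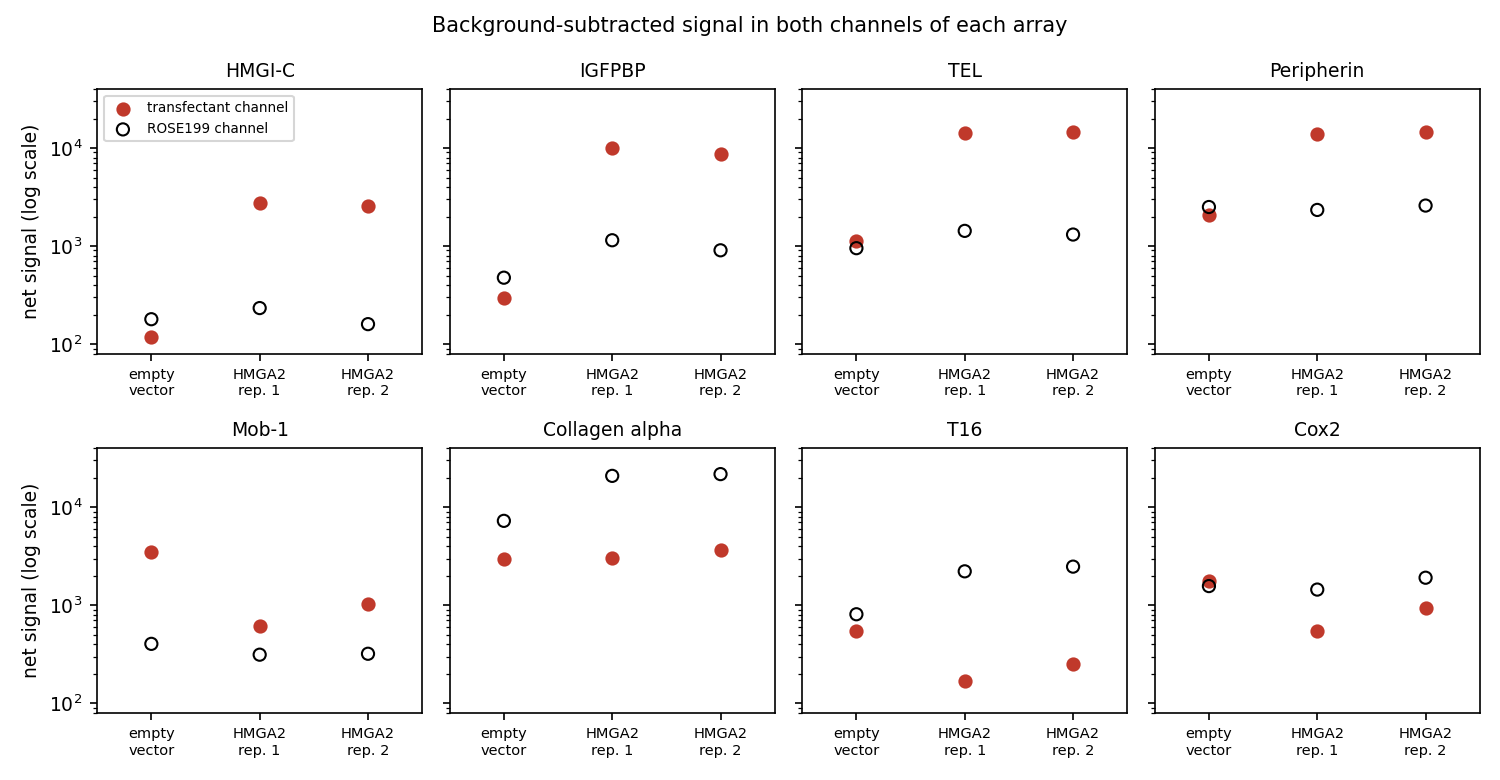
Background-subtracted signal (log scale) of 8 called features on the 3 arrays, with the transfectant channel filled and the ROSE199 channel open. In HMGI-C the transfectant channel goes from 118 to 2769 and 2558, whereas in Collagen alpha it is 2972, 3068 and 3645 and the ROSE199 channel is 7266, 20904 and 21787.

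The genes were then read by function, in 18 lists that hold 117 of the 293 named features. Of the 24 called features 21 were in a list, and the 3 others were NO3, Hepatocellular carcinoma antigen and Sex comb on midleg homolog. For reference, 7.72% of all features were called and the median difference over all features was 0.00. The lists were chosen with earlier results of these data known and hold most of the calls. A share of calls above 7.72% in a list is therefore no result about its genes.

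Of the HMGA proteins and reported HMGA2 targets, HMGI-C was called and the other 3 were not. The cell cycle inhibitor P16 (ink4a) read 0.01, -0.68 and -0.79, a difference of -0.69, and c-myc also had a negative value (-0.61). JunB was at -0.41, and at 0.08 after centring on beta actin. The list's median was -0.51.

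RAS genes and MAPK signalling had 27 features, with TEL and N-myc called higher, FHL2 called lower and a median of -0.13. Negative values numbered 18 and positive ones 9, and several near 0 changed sign with the scaling. The AP-1 subunits Fra-1 (-0.90), JUN (-0.50) and JunB and the early-response gene TDAG51 (-0.78) lay below 0, as did the MAPK phosphatases Mkp3 (-0.43) and Mkp1 (-0.34; 0.03 with beta actin centring). Sprouty2, a feedback inhibitor of receptor signalling, was at 0.50 and Ets1 at 0.40. K-ras read 0.03, -0.29 and -0.11, a difference of -0.22 that turned positive, up to 0.45, with median, housekeeping or beta actin centring or the deposited ratios. None of the RAS genes was called.

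All 7 features of the EGF receptor and growth factor list had fitted values below 0 and none was called. Several were faint on HMGA2 replicate 1, with net signals of 110 (PDGF receptor), 123 (FGF-2) and 137 (EGFR) against an array median of 1287. HB-EFG, an EGF receptor ligand, read -0.03, -0.82 and -0.53, a difference of -0.85, and EGFR itself was at -0.21. FGF-2 (-0.25), PDGF receptor (-0.24) and TGF alpha (-0.24) were closer to 0. TGF alpha depended on the dye term, with 0.04 between the Cy5 arrays and -1.09 without HMGA2 replicate 1. Values for VEGF and PDGF were nearest to 0 (-0.06 and -0.01; PDGF was positive under 5 of the scalings, up to 0.53). The list's median was -0.24.

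Among the 8 TGF-beta, IGF and CCN regulators IGFPBP was called and the median was -0.02, a sign that housekeeping and beta actin centring and scaling to one spread reversed. The features Follistatin related protein and TSC36 were at 0.84 and 0.50, and whether they read separate genes was not examined. The CCN proteins FISP-12 and Cyr61 were at -0.37 and -0.17, both positive with housekeeping or beta actin centring. Cyr61 read 0.33, -0.24 and -0.29, with -0.57 between the Cy5 arrays and 1.04 without HMGA2 replicate 1, where the dye term comes from the siHMGA2 pair, so its direction was not settled. FISP-12 was at 0.16 and Follistatin related protein and TSC36 at 1.64 and 1.02 under that setting.

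Calls among the 9 extracellular matrix features went both ways. T16 and Collagen alpha were called lower and Steroid sensitive gene higher, which is 3 of 9. Fibronectin was at -0.69 and not called, while Lox, the enzyme that crosslinks collagen, was at 0.58 and Osteonectin at 0.36. The median of 0.28 became -0.12 with the deposited ratios. None of the 8 proteases and inhibitors was called, from MMP1 at -0.36 to TIMP-2, an inhibitor of matrix metalloproteinases, at 0.46, with a median of -0.16. MMP1 read -0.21, -0.65 and 0.47, so its HMGA2 arrays lay on both sides of the control.

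Of the 6 epithelial and ovarian surface epithelial features 5 had positive fitted values, DOC-2 being called, and the median was 0.42. One of these, P-cadherin, read 0.18, 0.07 and 0.06, so both HMGA2 arrays lay below the control. Its fitted 0.32 comes from the dye term, with -0.12 between the Cy5 arrays and 1.62 without HMGA2 replicate 1. The transcription factor Basonuclin read -0.02, 0.75 and 0.54 (0.96), Megakaryocyte potenciating factor, the mesothelin precursor, was at 0.49, and WT1, a marker of this epithelium, at 0.36. E-cadherin, the junction protein of most epithelia, read 0.23, -0.80 and -0.99, a difference of -0.85. It passed the limit without a dye term (-1.13) and between the Cy5 arrays alone (-1.03). All 5 adhesion receptors and junction features had fitted values below 0 and none was called, with a median of -0.44 (Thy-1 -0.51, CD44 -0.49, the gap junction protein Cx43 -0.44; Syndecan-1, at -0.18, was positive under 4 scalings). Beta 3 integrin, at -0.12, was at 0.32 without HMGA2 replicate 1. Thy-1 read 0.10, -0.27 and 0.24, on both sides of the control, with a net signal of 107 on HMGA2 replicate 1.

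Markers of other cell types were read beside these. Of a short list of fibroblast or mesenchymal markers, the 5 found on the array had negative values: Collagen alpha (called lower), P9ka42a (-0.88), Fibronectin (-0.69), Thy-1 (-0.51) and PDGF receptor (-0.24). Other matrix genes that such cells make went the other way, as given above for Lox, Osteonectin and Steroid sensitive gene. The values are fitted, and Thy-1 read above the control on HMGA2 replicate 2. Of the smooth muscle features SM22 was at -0.68 and TPM2 at 0.21, and of the neuronal ones Peripherin was called higher, NAP-22 was at -0.46 and Neuritin at -0.22 (NAP-22 and Neuritin were positive with beta actin centring, and Neuritin was at 0.06 between the Cy5 arrays and -1.05 without HMGA2 replicate 1). None of these features was at blank level on the 3 arrays. Whether a change in the mixture of cells takes part in the matrix values was not tested.

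Actin-linked, S100 and caveolin genes were split. Ril and Cav-1 were called higher and Ahnak lower, 3 of 9, with a median of -0.68. The S100 family members S-100 related and P9ka42a read 1.08, -0.04 and -0.05 and 1.09, -0.09 and -0.03, so both were above ROSE199 with the empty vector and level with it with HMGA2. Their differences of -0.99 and -0.88 missed the limit, and the features were called under 8 and 7 of the 17 alternatives. P9ka42a was at 0.02 without HMGA2 replicate 1. Alpha actinin (-0.74) was not called either. SM22, at -0.68, was at -1.17 between the Cy5 arrays, called under 6 alternatives, and at 0.79 without HMGA2 replicate 1. For SM22, S-100 related and P9ka42a, most of these alternatives come down to the one estimate from the Cy5 arrays. Cav2, the partner of Cav-1, was at 0.07 and turned negative with median centring and the deposited ratios.

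In the neuronal list Peripherin and Sortilin were called, 2 of 4, with a median of 0.73. Of the chemokine and interferon-linked features Mob-1 was called lower. Mama and Interferon induced gene read 1.57, 0.96 and 1.12 and 1.58, 0.93 and 0.65, so they were above ROSE199 in both transfectants with differences of -0.57 and -0.45. With the arrays scaled to one spread both were called lower, at -1.52 and -1.41, and without HMGA2 replicate 1 Interferon induced gene was at 0.15. RPT-1r was the one with a positive value. In prostaglandin synthesis, Cox2 was called lower while Cyclooxygenase 1, the constitutive enzyme, was at -0.05 and the phospholipase PS-PLA1 at 0.02, values that changed sign with the scaling.

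Of the 10 tumour suppressors and growth inhibitors MEN1 and P53 binding protein were called higher, and the median was 0.41. H-rev107, a phospholipase that suppresses growth of RAS-transformed cells, read 0.60, 1.35 and 1.31, a difference of 0.92, and was called under 6 of the 17 alternatives. The cyclin-dependent kinase inhibitor P27 kip was at 0.63 but its arrays lay on both sides of the control (-0.09, 0.57 and -0.19). Par4, a pro-apoptotic protein, was at -0.55. Among the 7 cell cycle features Serum inducible kinase and MYB-binding protein were called lower, the proliferation marker Ki-67 read 0.42, -0.10 and -0.43 (-0.55), and CyclinD1 was at 0.02 (-0.01 with plain background subtraction).

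None of the 5 stress and apoptosis features was called. P5 protein, a disulphide isomerase of the endoplasmic reticulum, read -0.26, 0.70 and 0.65 (0.88), and BCL-2 was at -0.15. Prkar2b, a regulatory subunit of protein kinase A, was at -0.14, and at 0.11 between the Cy5 arrays. Of the metabolic enzymes Balb aldose reductase related was called lower and Antiquitin (0.46) and FAH (0.34) were not. The 5 housekeeping features had a median of -0.49, with S9, GAPDH and beta actin at -0.52, -0.52 and -0.49 and HPRT at 0.27. Centring on beta actin made the first 3 positive and shifted the median of all features by 0.21, and centring on housekeeping features shifted it by 0.13.

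**Figure D4:**
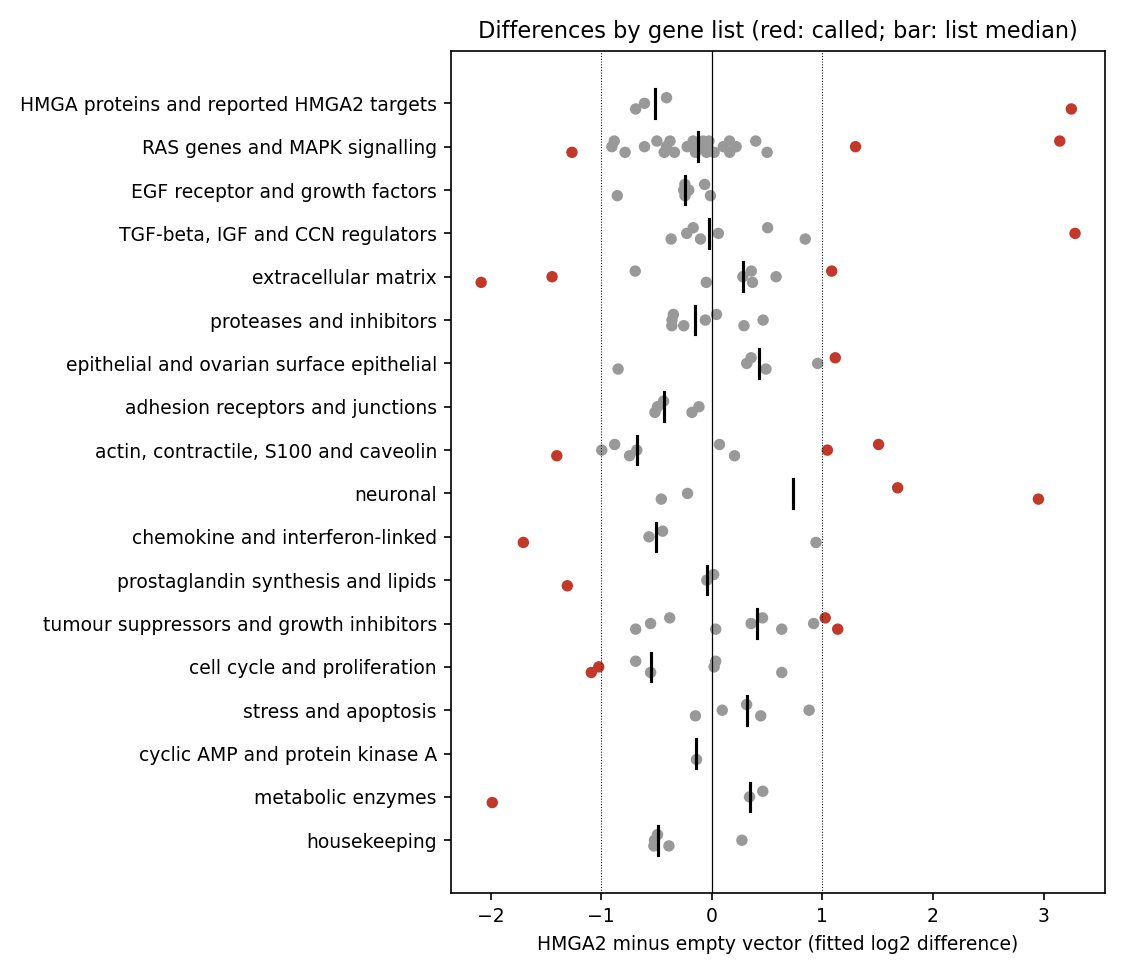
Fitted log2 difference of HMGA2 minus empty vector for the members of 18 gene lists, with called features in red, the list median as a bar and dotted lines at the size limit of 1. All 7 growth factor features and all 5 adhesion features lie below 0 in this fit (TGF alpha is at 0.04 between the Cy5 arrays), and no list holds more than 3 called features.

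The calls differed in how far they depended on the processing. Under 17 other settings that keep all 311 features and the size limit, 5 of which come down to the one estimate from the Cy5 arrays, 10 of the 24 were called each time: IGFPBP, HMGI-C, TEL, Peripherin, Sortilin, NO3, Ril and N-myc as higher and Mob-1 and Balb aldose reductase related as lower. Each of the 24 kept its sign under all 17. P53 binding protein was called under 6, Steroid sensitive gene under 10 and Cav-1 under 11. Sortilin went from 1.68 to 3.04 without HMGA2 replicate 1 and to 1.23 without replicate 2, and DOC-2 to 0.59 without replicate 1. Collagen alpha and Ahnak went to -0.60 and -0.69, and Mob-1 to -3.43, when the arrays were scaled to one spread.

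**Figure D5:**
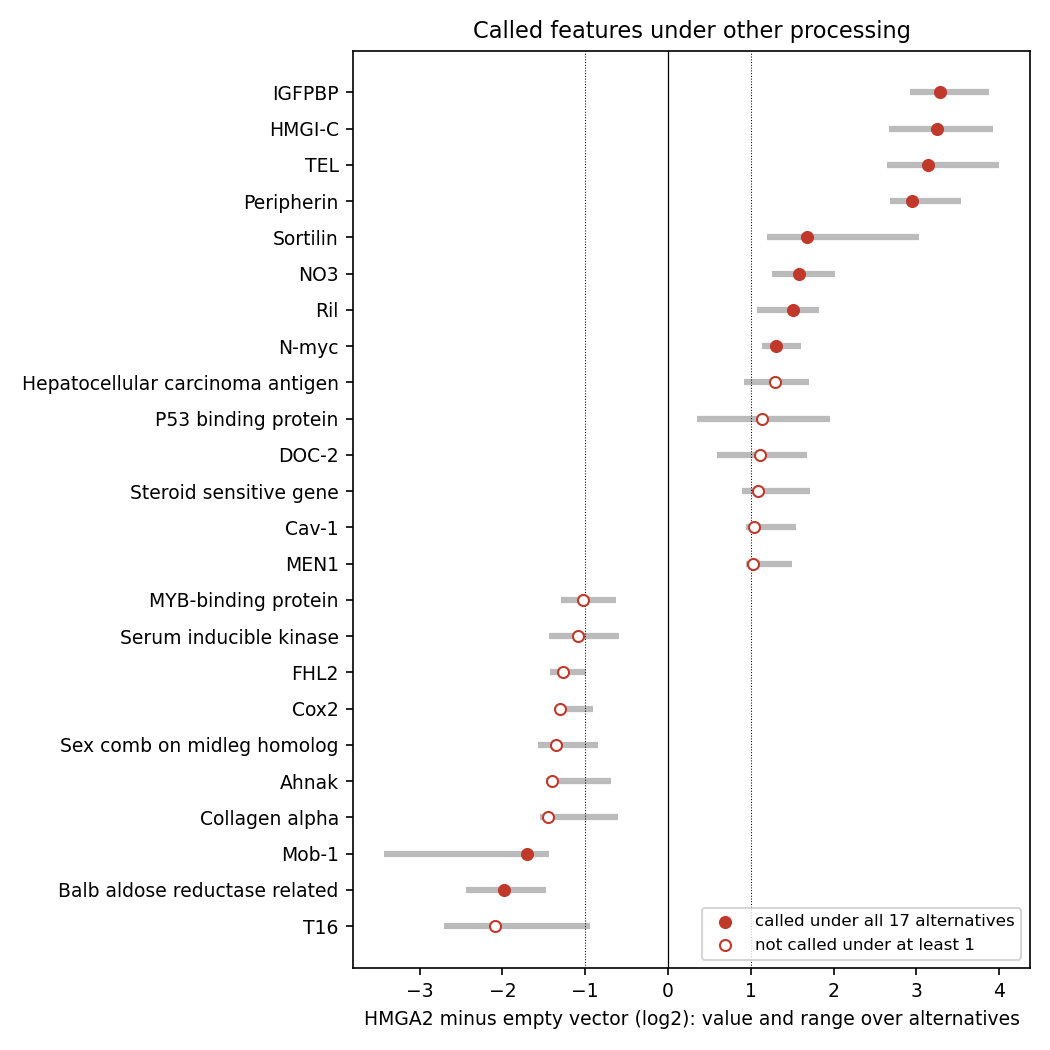
Difference of HMGA2 minus empty vector (log2) for the 24 called features, as reported (circle) and over 17 alternatives (grey bar), with dotted lines at the size limit of 1. Filled circles mark the 10 features called under all 17, and every bar stays on 1 side of 0.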

How the data were processed

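RNA was measured on 6 spotted 2-colour arrays, each with 1760 spots, 37 of them blank. The deposited quantification files give the mean intensity and the median background of every spot in both dyes, per the file headers (version 5). The table of log2 ratios that the authors deposited was used as an alternative; correlations of 0.841 to 0.948 with the spot ratios gave its direction, and how it was centred is unknown. Spots marked poor were left out. Background was corrected with normexp (offset 50) and ratios with loess (span 0.3, 4 iterations, blank and beta actin spots at weight 0), in R 4.3.3 with limma 3.58.1. Ratios were turned to transfectant over ROSE199 and averaged by name. Each feature was fitted with 1 value per group and a dye term over 6 arrays. This left 1 residual per feature, pooled over 311 features as a scaled median (SD 0.169; root mean square 0.229), so the error of a single feature may be larger. The single empty-vector array has no replicate, and a dye effect of its own stays in its value. The fit was tested on simulated data. Above blank means 3 SD over the blank spots. The features, gene lists and rules were chosen with earlier results of these data known. Named were the targeted gene, every called feature, list members, the 3 features nearest to the limit on each side and those with HMGA2 arrays on opposite sides of the control. By symbol or synonym, 123 of 293 named features matched 1 gene in the RefSeq table (GRCr8), 11 matched several and 159 none; gene symbols were used only for the lookup of promoter windows, and a few names were matched by protein name. Precision was limited by the number of arrays. Further lists, read after the values were known, are given among the other observations.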

Additional observations from a re-analysis of the deposited data

How the results depend on the processing

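Main counts were 14 higher and 10 lower (58.3% higher). The higher count was 8 without background subtraction, 27 with housekeeping and 34 with beta actin centring. Restricting to the 156 brightest features gave 7 higher and 6 lower. A size limit of 0.8 gave 23 and 16, and a limit of 1.5 gave 7 and 3. The share of higher calls was 79.4% with housekeeping, 82.9% with beta actin centring, 72% with the deposited ratios, 70% at a limit of 1.5 and 48.1% with Cy5 arrays only. Leaving out 1 array gave 13 to 27 higher and 13 to 14 lower features. The highest of these higher counts came without HMGA2 replicate 1, where Serum inducible kinase, MYB-binding protein, T16 and DOC-2 were not called. The same-sign condition could not be applied there, so that count is not under the same rule as the others. P-cadherin (1.62) and Cyr61 (1.04) were called higher there, although their differences between the Cy5 arrays were -0.12 and -0.57. Without HMGA2 replicate 2, or without either siHMGA2 array, the estimate falls back to the Cy5 arrays, and P53 binding protein (0.87), Steroid sensitive gene (0.95) and Cav-1 (0.99) were not called. The fewer features tested account for the counts among brighter features; for the other settings the cause was not tested. Of the medians of the gene lists under these settings, 396 moved by less than the pooled SD of 0.169 and 95 by more. No called feature changed sign. No paired analysis was possible because the empty vector has 1 array. Faint features such as Hepatocellular carcinoma antigen (net signal 172 with the empty vector) are limited by signal over background.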

Other observations

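Further families on the array, gathered after the values were known, held values close to 0 with 1 call. All 4 ID proteins, which block basic helix-loop-helix transcription factors, had positive values, from ID2 at 0.02 to ID1 at 0.40 and ID4 at 0.57. Without HMGA2 replicate 1 ID2 was at -0.19 and ID4 at 1.23. ID4 read -0.14 with the empty vector and 0.22 and 0.30 with HMGA2. The maintenance DNA methyltransferase Dnmt1 (-0.18) and the de novo enzymes Dnmt3a (0.07) and Dnmt3b (-0.03) changed sign with the scaling, as did the muscle factor MyoD (0.01). Topoisomerase features TOPO I and TOPO II were at -0.05 and 0.21, the former positive under 4 scalings. Among the suppressors, RB was at 0.56 with unequal arrays (0.08, 0.79 and 0.13), and NF1 at -0.41 and NF2 at -0.31. Of 7 chromatin and Polycomb features Sex comb on midleg homolog was called lower, Polyhomeotic mRNA was at 0.33 and H3.3, a replacement histone, at 0.48. Of the 5 features of protein kinase A anchoring and cyclic AMP, CAMP phosphodiesterase was lowest (-0.24) and Guanine NBP G-s, saturated on 1 array, highest (0.37). None of these families except the chromatin list held a call.

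The 176 named features outside the 18 lists had a median of 0.04, and 151 of them lay within 0.5 of 0. The one named Trancript associated read 0.05, 1.14 and 1.20, a fitted difference of 0.93 just under the limit. It was called under 10 of the 17 alternatives, among them those that come down to the Cy5 arrays. Its values were looked up after they were seen. Across features, the gap between the HMGA2 arrays followed the gap between the siHMGA2 arrays (r = 0.55, and 0.494 without Ha-ras, over 311 features that share probes, dyes and ROSE199 RNA).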
